A study of Mus musculus with 9 samples.

Results

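The genes described here are 35 targets of the transcription factor p53, chosen by gene symbol and grouped by what their products do. Of the 35 symbols, 32 matched a row in the deposited table of 13223 genes. Ptp4a3, Trp53cor1 and Aen matched no row and are not analysed here. Of the 32, 30 held enough counts to be tested and 2, Tigar and Cd80, did not. The irradiated group comprised 4 bulk RNA libraries of tuft cells, sorted from the thymus of young female wild-type mice 3 days after sublethal irradiation with 425 rad, and the untreated group comprised 5 libraries of the same kind from wild-type females of matched age. The assay was bulk MARS-seq, a form of RNA sequencing in which each transcript is counted at its 3' end. The labels do not say that each library came from a separate mouse, and the p-values below reflect differences among libraries, part of which may be technical. The comparison asks how p53 target transcripts in sorted tuft cells differed 3 days after the mice were irradiated.

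p53 is held at a low level by the ubiquitin ligase Mdm2, is stabilised when DNA is damaged, and then binds sites near its target genes and raises their transcription. Its targets halt the cell cycle, repair DNA, adjust metabolism, sensitise cells to death signals and, through Mdm2 itself, switch the response off again. The thymus is among the tissues whose lymphocytes are readily lost after irradiation, whereas tuft cells are rare chemosensory epithelial cells of the thymic medulla, marked by Trpm5, Avil and Pou2f3.

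Promoter sequence was taken from RefSeq (GRCm38.p6) as the 250 bases before each annotated start, for 26 of the 32 genes in the table. Trp53inp1, Zmat3, Tnfrsf10b, Perp, Xpc and Rrm2b had no window. The windows below belong to the 4 genes that the test called higher and to Mdm2 and Ccng1, the best known feedback targets. They are printed 5' to 3' on the strand of the gene, and capitals mark the matches found. They lie at chr17:29090729-29090978 (plus strand) for Cdkn1a, chr13:110394794-110395043 (plus) for Plk2, chr4:117133964-117134213 (minus) for Plk3, chrX:97377210-97377459 (minus) for Eda2r, chr10:117710759-117711008 (minus) for Mdm2 and chr11:40755287-40755536 (minus) for Ccng1.
Cdkn1a: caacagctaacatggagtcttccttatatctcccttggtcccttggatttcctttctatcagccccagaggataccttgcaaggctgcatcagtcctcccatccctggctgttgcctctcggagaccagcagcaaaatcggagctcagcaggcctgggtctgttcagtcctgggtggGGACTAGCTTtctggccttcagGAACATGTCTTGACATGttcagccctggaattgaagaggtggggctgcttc
Plk2: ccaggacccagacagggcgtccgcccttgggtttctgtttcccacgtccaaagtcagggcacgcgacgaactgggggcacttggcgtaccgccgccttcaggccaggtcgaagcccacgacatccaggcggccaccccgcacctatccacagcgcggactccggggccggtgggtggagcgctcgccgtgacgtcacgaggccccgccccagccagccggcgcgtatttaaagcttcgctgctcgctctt
Plk3: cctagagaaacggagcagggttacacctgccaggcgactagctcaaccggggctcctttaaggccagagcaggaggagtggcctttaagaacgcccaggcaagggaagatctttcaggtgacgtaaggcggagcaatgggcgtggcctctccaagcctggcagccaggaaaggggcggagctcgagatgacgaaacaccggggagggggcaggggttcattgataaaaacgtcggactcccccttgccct
Eda2r: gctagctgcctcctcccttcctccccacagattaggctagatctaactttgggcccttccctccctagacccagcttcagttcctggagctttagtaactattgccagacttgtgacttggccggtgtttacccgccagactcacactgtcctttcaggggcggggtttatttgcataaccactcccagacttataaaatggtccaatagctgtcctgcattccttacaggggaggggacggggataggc
Mdm2: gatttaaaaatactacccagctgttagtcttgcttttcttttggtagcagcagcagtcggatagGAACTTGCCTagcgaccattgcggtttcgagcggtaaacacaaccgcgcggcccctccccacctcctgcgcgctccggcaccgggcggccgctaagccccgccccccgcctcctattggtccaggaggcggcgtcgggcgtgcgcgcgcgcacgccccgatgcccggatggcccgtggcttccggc
Ccng1: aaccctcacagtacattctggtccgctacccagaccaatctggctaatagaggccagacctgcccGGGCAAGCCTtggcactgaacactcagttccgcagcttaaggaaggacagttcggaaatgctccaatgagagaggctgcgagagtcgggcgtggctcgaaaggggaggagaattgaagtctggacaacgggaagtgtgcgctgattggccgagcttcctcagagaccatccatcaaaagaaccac

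The search was for the consensus p53 decamer, whose pattern reads the same on both strands, for a pair of decamers up to 13 bases apart (a full p53 site), and for CATG followed by any 6 bases and then CATG, which also reads the same on both strands. In the Cdkn1a window the decamers span bases 73 to 64 and 51 to 42 before the start, 12 bases apart, and the CATG pair spans bases 48 to 35, so it overlaps the second decamer. Mdm2 held 1 decamer, at bases 186 to 177, and Ccng1 held 1, at bases 185 to 176. No match was present in the printed windows of Plk2, Plk3 and Eda2r. None was present in a second annotated Cdkn1a window, downstream at chr17:29093519-29093768 (plus strand). The Cdkn1a positions above are counted from the upstream start. Cdkn1a was the only 1 of the 26 genes with a full site or a CATG pair, which 0.0639% and 0.49% of all 32851 annotated windows held. A decamer was found for 8 of the 26 genes (8 of their 36 windows), against 7.13% of all windows. The other 5 genes with a decamer were Rps27l, Polk, Sesn1, Ddit4l and Ei24. No mismatch was allowed, so a site with a differing base would be missed. A match is a run of letters and not a measured binding site.

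Library totals ran from 509157 counts in irradiated replicate 4 to 978442 in untreated replicate 1, and 1 count was worth between 1.04 and 2.10 CPM (counts on a scale common to all libraries, after TMM scaling). Irradiated replicate 4 stood apart. It had the fewest genes detected (11747, against 12445 to 12917 in the other 8 libraries) and the lowest median correlation with the other libraries (0.82, against 0.85 to 0.91). Each result that rests on it is given with and without it. Tuft cell markers had the highest sum of the 8 marker lists in every library. Markers of fibroblasts and mesothelium were also present, at sums of up to 4417 and 3982 CPM. All 14 tuft cell markers checked, Trpm5, Avil, Pou2f3, Gnb3 and Il25 among them, were detected in all 9 libraries, and their summed level was 13578 to 18293 CPM in irradiated libraries and 8123 to 17539 CPM in untreated libraries (two-sided exact permutation test, p = 0.357).

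Of the 30 tested p53 targets, 4 rose in irradiated tuft cells, 0 fell and 26 were not called (edgeR quasi-likelihood test, adjusted p of 0.05 or less). Across all 8934 genes tested, 1.22% were called higher and 0.123% lower. The 4 were Cdkn1a, Plk2, Plk3 and Eda2r. At an unadjusted p under 0.05 there were 9 of the 30, of which 1 was lower, against 10.6% of all tested genes. A positive log2 fold change was seen for 21 of the 30 (70%) and for 47.5% of all tested genes, and the median was 0.33 for the 30 and -0.02 for all genes. Eda2r passed the low-count filter through its irradiated libraries alone and Rrm2b through its untreated libraries alone, so neither adds to those counts as evidence. By function, 3 of 5 tested genes of arrest of the cell cycle and mitosis rose, and 0 of 5 of feedback on p53. The counts were 0 of 4 for DNA repair, 0 of 7 for metabolism, 1 of 4 for receptors and 0 of 5 for the death machinery. The median log2 fold change of these groups was 1.27, 0.50, -0.06, 0.06, 0.21 and 0.19, in the same order.

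**Figure D1:**
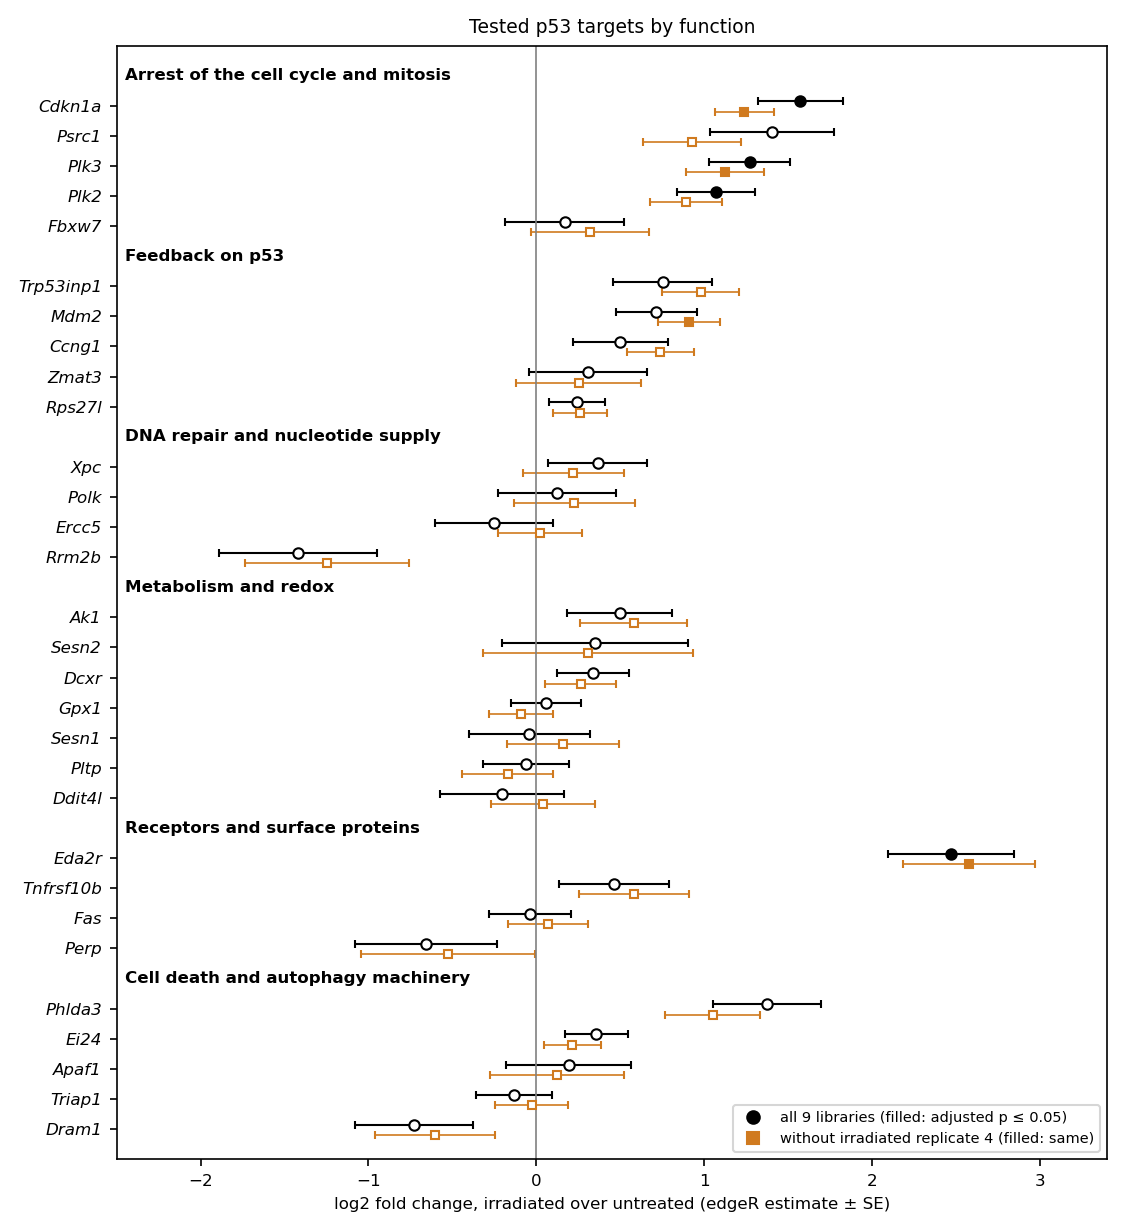
Log2 fold change of irradiated over untreated (x axis, edgeR estimate with its SE as the bar) for the 30 tested p53 targets, grouped by function on the y axis. Circles use all 9 libraries and squares leave out irradiated replicate 4, with filled symbols for an adjusted p of 0.05 or less. Cdkn1a, Plk2, Plk3 and Eda2r are filled with all libraries, and Cdkn1a, Plk3, Eda2r and Mdm2 without irradiated replicate 4.

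The genes grouped under arrest of the cell cycle and mitosis held the clearest rise. Cdkn1a encodes p21, the inhibitor of cyclin-dependent kinases through which p53 stops the cycle. It measured 924, 858, 744 and 1732 CPM in irradiated replicates 1 to 4, against 290.0, 361, 292, 416 and 427 CPM in untreated replicates 1 to 5. Every irradiated library lay above every untreated one, and irradiated replicate 4 was the highest of all. The mean was 1064 ± 451 CPM (SD, n = 4) in irradiated and 357 ± 65.1 CPM (SD, n = 5) in untreated libraries, a 2.98-fold rise (log2 fold change 1.57 ± 0.25, edgeR adjusted p = 0.00525). Without irradiated replicate 4 the log2 fold change was 1.24 ± 0.18 (edgeR adjusted p = 0.0025). The Cdkn1a window printed above held a match to the pattern of a full p53 site, and a second annotated window of the gene held no match. Whether the matched stretch has a part in the rise was not tested. The gene is protein-coding and sits on chromosome 17, plus strand, from 29090976 to 29100727 (mm10, GENCODE M21). Its exons overlap those of AC167363.2 on the opposite strand, and since the strand setting of the counting is not given, reads of the pair could not be told apart.

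Plk2 and Plk3 encode polo-like kinases that respond to stress and act on the centrosome cycle and on checkpoints. Plk2 measured 212, 161, 227 and 309 CPM in irradiated libraries, against 91.1, 75.6, 95.0, 153 and 124 CPM in untreated libraries. Plk3 measured 151, 111, 88.5 and 168 CPM in irradiated libraries, against 70.1, 51.9, 40.7, 61.8 and 40.4 CPM in untreated libraries. For both genes the groups did not overlap. Plk2 rose 2.10-fold (log2 fold change 1.07 ± 0.23, edgeR adjusted p = 0.0389) and Plk3 rose 2.42-fold (1.27 ± 0.24, edgeR adjusted p = 0.0158). The call of Plk2 was the least stable of the 4. It was kept in 2 of the 9 fits that left out 1 library (those without untreated replicate 4 or irradiated replicate 2) and lost in the others, with an edgeR adjusted p of up to 0.119 (without untreated replicate 3). Without irradiated replicate 4, which was the highest library for both, the log2 fold change was 0.89 for Plk2 (edgeR adjusted p = 0.0697) and 1.13 for Plk3 (0.0271). Plk3 was lost without untreated replicate 3 (edgeR adjusted p = 0.053) or irradiated replicate 1 (0.0811). Plk2 sits on chromosome 13, plus strand, from 110395046 to 110400844, with no overlapping exon. Plk3 sits on chromosome 4, minus strand, from 117128655 to 117133963, and shares exon sequence with Tctex1d4 on the other strand, so its level is uncertain.

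Psrc1, which encodes a microtubule-binding protein of the mitotic spindle, measured 20.3, 36.3, 30.2 and 82.1 CPM in irradiated libraries, against 14.7, 14.8, 13.6, 18.4 and 15.3 CPM in untreated libraries. The groups did not overlap, yet irradiated replicate 1 lay close to the highest untreated library. The test did not call it (log2 fold change 1.41 ± 0.37, edgeR adjusted p = 0.0999), and without irradiated replicate 4 the log2 fold change was 0.93 (edgeR adjusted p = 0.213). Fbxw7, the substrate receptor of a ubiquitin ligase that degrades cyclin E, averaged 21.7 ± 6.67 CPM in irradiated and 19.3 ± 8.25 CPM in untreated libraries (SD, n = 4 and n = 5), a log2 difference of 0.17 ± 0.36.

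**Figure D2:**
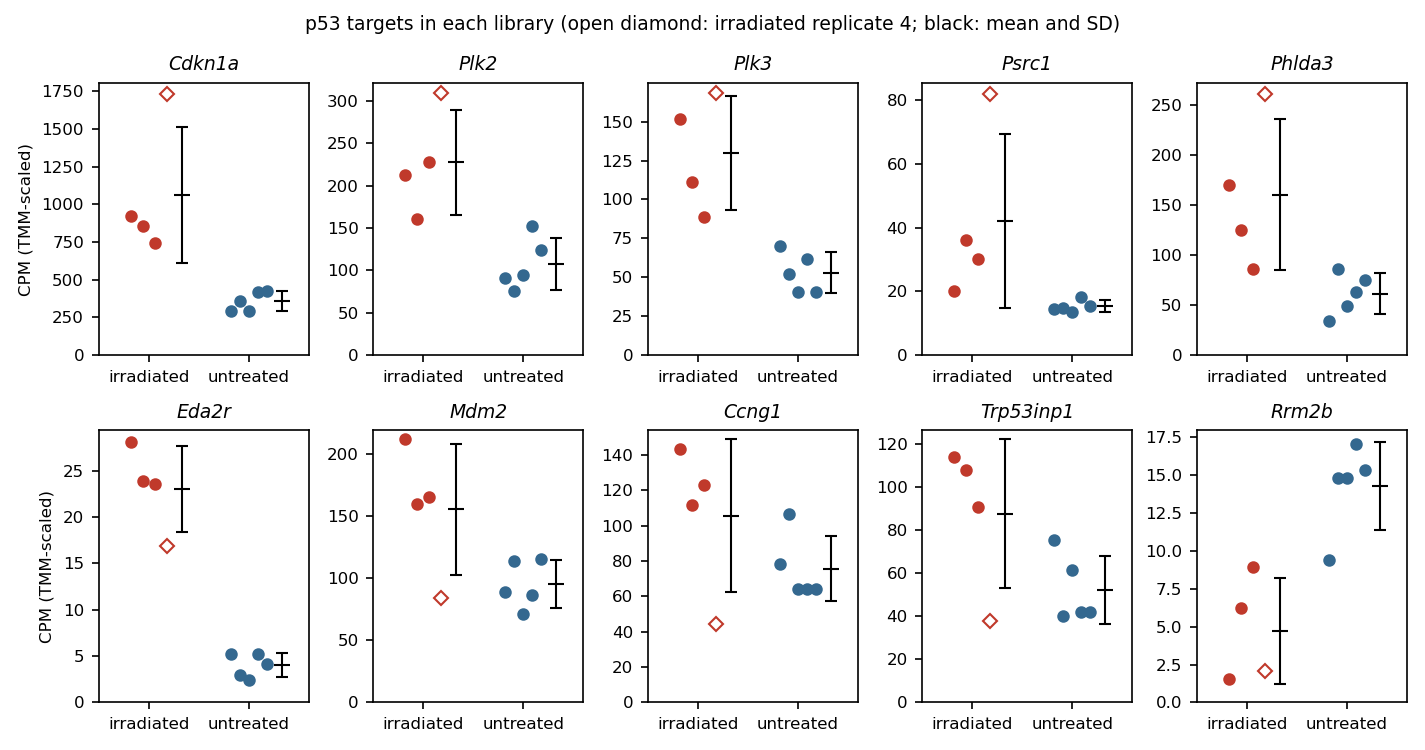
Level in CPM (y axis, linear, from 0) of 10 p53 targets in each library, with irradiated libraries to the left of untreated ones. Points are libraries, the open diamond is irradiated replicate 4, and black marks are the group mean and SD. The groups do not overlap for Cdkn1a, Plk2, Plk3, Psrc1, Phlda3, Eda2r and Rrm2b, while irradiated replicate 4 lies among the untreated libraries for Mdm2 and below them for Ccng1 and Trp53inp1.

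Groups that did not overlap were found for 6 of the 30 targets in the higher direction (Cdkn1a, Plk2, Plk3, Psrc1, Eda2r and Phlda3) and for 1, Rrm2b, in the lower. Among all tested genes this held for 3.06% in the higher and 2.08% in the lower direction. Eda2r and Rrm2b passed the low-count filter through 1 group alone, which favoured a difference in advance, and are in those counts only as description.

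None of the 5 targets that feed back on p53 was called. For all of them but Zmat3, irradiated replicate 4 lay below the other irradiated libraries and within or below the untreated ones. Mdm2 measured 212, 159.6, 166 and 84.2 CPM in irradiated replicates 1 to 4, against 89.0, 114, 71.5, 86.8 and 116 CPM in untreated libraries. Ccng1, which encodes cyclin G1, a partner of the phosphatase that activates Mdm2, measured 144, 112, 123 and 44.2 CPM in irradiated libraries, against 78.5, 107, 64.1, 64.4 and 64.1 CPM in untreated libraries. Trp53inp1, a p53-induced nuclear protein that promotes p53 phosphorylation and autophagy, is given in full after its values were seen. It measured 114, 108, 90.7 and 37.9 CPM in irradiated libraries, against 75.4, 40.0, 61.7, 42.1 and 41.8 CPM in untreated libraries. For Mdm2, Ccng1 and Trp53inp1, irradiated replicates 1 to 3 lay above every untreated library and irradiated replicate 4 did not.

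With all libraries, the log2 fold change was 0.71 ± 0.24 for Mdm2 (edgeR adjusted p = 0.234), 0.50 ± 0.28 for Ccng1 (0.586) and 0.75 ± 0.30 for Trp53inp1 (0.348). Without irradiated replicate 4 it was 0.91 ± 0.19 for Mdm2 (edgeR adjusted p = 0.0257), 0.74 ± 0.20 for Ccng1 (0.119) and 0.98 ± 0.23 for Trp53inp1 (0.0592). The call of Mdm2 thus changed with that library, and the calls of the other 2 genes did not. A fit added after the data were seen also left out untreated replicate 2. In it Ccng1 was called (log2 fold change 0.88, edgeR adjusted p = 0.0143) and Trp53inp1 was not (0.90, edgeR adjusted p = 0.0634). Zmat3, an RNA-binding zinc finger protein, averaged 22.5 ± 7.14 CPM in irradiated and 17.9 ± 5.85 CPM in untreated libraries. Rps27l, a ribosomal protein paralogue that stabilises p53, averaged 338 ± 13.4 and 286 ± 48.5 CPM (SD, n = 4 irradiated and n = 5 untreated). Their log2 fold changes were 0.31 ± 0.35 and 0.24 ± 0.17, and neither passed. Mdm2 sits on chromosome 10, minus strand, from 117688875 to 117710758, and Ccng1 on chromosome 11, minus strand, from 40748552 to 40755311. Neither has an overlapping exon.

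Of the DNA repair genes, none was called. Rrm2b, which encodes the p53-inducible small subunit of ribonucleotide reductase that supplies deoxynucleotides for repair, ran against the direction of most targets. It measured 1.56, 6.22, 8.96 and 2.10 CPM in irradiated libraries, against 9.42, 14.8, 14.8, 17.1 and 15.3 CPM in untreated libraries, on 16 counts in all irradiated and 55 in all untreated libraries. The groups did not overlap, with irradiated replicate 3 just under untreated replicate 1. The log2 fold change was -1.42 ± 0.47, with an unadjusted p of 0.00918 and an edgeR adjusted p of 0.220. Exons of Rrm2b overlap those of Gm49085 on the opposite strand. Polk, a polymerase that bypasses DNA lesions, averaged 20.8 ± 8.33 CPM in irradiated and 18.9 ± 6.45 CPM in untreated libraries. The excision repair genes Xpc, which recognises damage, and Ercc5, which cuts the damaged strand, averaged 26.8 ± 8.35 and 31.9 ± 16.7 CPM in irradiated and 20.3 ± 3.00 and 39.6 ± 9.503 CPM in untreated libraries. Ercc5 was at 8.42 CPM in irradiated replicate 4 and at 32.8 to 47.0 CPM in the other irradiated libraries, and its log2 fold change was -0.25 with and 0.02 without that library.

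None of the 7 tested genes of metabolism and redox control was called. Of the sestrins, which dampen growth signalling, Sesn1 averaged 31.8 ± 11.7 CPM in irradiated and 33.01 ± 15.7 CPM in untreated libraries, and Sesn2 averaged 19.5 ± 8.78 and 14.9 ± 12.4 CPM. Gpx1, a glutathione peroxidase, averaged 759 ± 158 CPM in irradiated and 727 ± 147 CPM in untreated libraries. Log2 fold changes of the 7 tested genes ran from -0.20 for Ddit4l, an inhibitor of mTOR signalling, to 0.50 for the adenylate kinase Ak1, with the sugar reductase Dcxr at 0.34 and the lipid transfer protein Pltp at -0.06. Exons of Pltp overlap those of Ctsa on the opposite strand. Tigar, which lowers glycolytic flux, was under the filter, with 3, 5, 5 and 2 counts in irradiated libraries and 4, 4, 1, 5 and 8 counts in untreated libraries. The counts of Tigar overlapped and gave no basis for a fold change.

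Among receptors and surface proteins, Eda2r had the largest fold change of the 30 targets. It encodes a receptor of the tumour necrosis factor family that binds the A2 form of ectodysplasin. It measured 28.1, 23.8, 23.5 and 16.8 CPM in irradiated libraries, against 5.23, 2.96, 2.47, 5.26 and 4.18 CPM in untreated libraries. Every irradiated library lay more than 10 CPM above every untreated one, on 70 counts in all irradiated and 16 in all untreated libraries. The rise was 5.55-fold (log2 fold change 2.47 ± 0.37, edgeR adjusted p = 0.00364), and irradiated replicate 4 was the lowest irradiated library. Leaving out any 1 of the 9 libraries kept the calls of Eda2r and Cdkn1a, and so did each of the 9 other alternatives. Eda2r passed the low-count filter through its irradiated libraries alone, so its calls in the filtered fits are only description. With no such filter its log2 fold change was 2.49 (edgeR adjusted p = 0.00569). Eda2r sits on chromosome X, minus strand, from 97333840 to 97377216, with no overlapping exon.

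The other 3 tested genes of this group, among them the death receptors, were not called. Fas averaged 44.7 ± 10.1 CPM in irradiated and 46.3 ± 10.2 CPM in untreated libraries (SD, n = 4 and n = 5; log2 fold change -0.04 ± 0.24). Tnfrsf10b, the receptor for TRAIL, averaged 18.6 ± 4.08 CPM in irradiated and 13.6 ± 3.89 CPM in untreated libraries (0.46 ± 0.33, edgeR adjusted p = 0.694). Perp, a desmosome protein linked to p53-dependent death, averaged 137 ± 33.1 CPM in irradiated and 218 ± 145 CPM in untreated libraries (-0.66 ± 0.42, edgeR adjusted p = 0.655). Untreated replicate 2 was the highest library for Perp with 452 CPM, and the other untreated libraries held 92.1 to 262 CPM. Cd80, a costimulatory ligand of T cells, was under the filter, with 1, 3, 4 and 2 counts in irradiated libraries and 5, 16, 2, 2 and 5 counts in untreated libraries. Cd80 is also among the markers of medullary thymic epithelium used here, whose summed level was highest in the same untreated replicate 2 (1973 CPM), with irradiated libraries at 474 to 649.9 CPM and the remaining untreated libraries at 409 to 834 CPM. The part of those cells in the values of Perp and Cd80 was not tested.

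Of the death and autophagy machinery, Phlda3 came closest to a call. Its product competes with the kinase Akt for membrane lipids and so restrains survival signalling. It measured 170.1, 125, 86.2 and 261 CPM in irradiated libraries, against 34.5, 85.9, 49.3, 63.1 and 75.3 CPM in untreated libraries. The groups did not overlap, by a margin of less than 1 CPM. The 2.59-fold difference had a log2 fold change of 1.37 ± 0.32 and an edgeR adjusted p of 0.0609. Phlda3 was called without untreated replicate 2 (edgeR adjusted p = 0.0405) or irradiated replicate 3 (0.0171), the libraries that came closest to each other, and had an edgeR adjusted p of 0.131 without irradiated replicate 4.

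The other 4 tested genes of this group had log2 fold changes between -0.73 and 0.36 and were not called. Apaf1, the scaffold of the apoptosome, averaged 17.9 ± 2.11 CPM in irradiated and 15.4 ± 7.45 CPM in untreated libraries. Triap1, an inhibitor of apoptosis, averaged 42.8 ± 10.9 and 47.1 ± 4.89 CPM, in the same order of groups. Ei24, a membrane protein of the endoplasmic reticulum with a part in autophagy, averaged 107 ± 21.9 CPM in irradiated and 82.5 ± 10.5 CPM in untreated libraries (0.36 ± 0.19 as log2, edgeR adjusted p = 0.552). Its exons overlap those of Gm26787 on the opposite strand. Dram1, a lysosomal activator of autophagy, averaged 12.99 ± 3.18 CPM in irradiated and 22.3 ± 7.28 CPM in untreated libraries (-0.73 ± 0.35, edgeR adjusted p = 0.493).

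**Figure D3:**
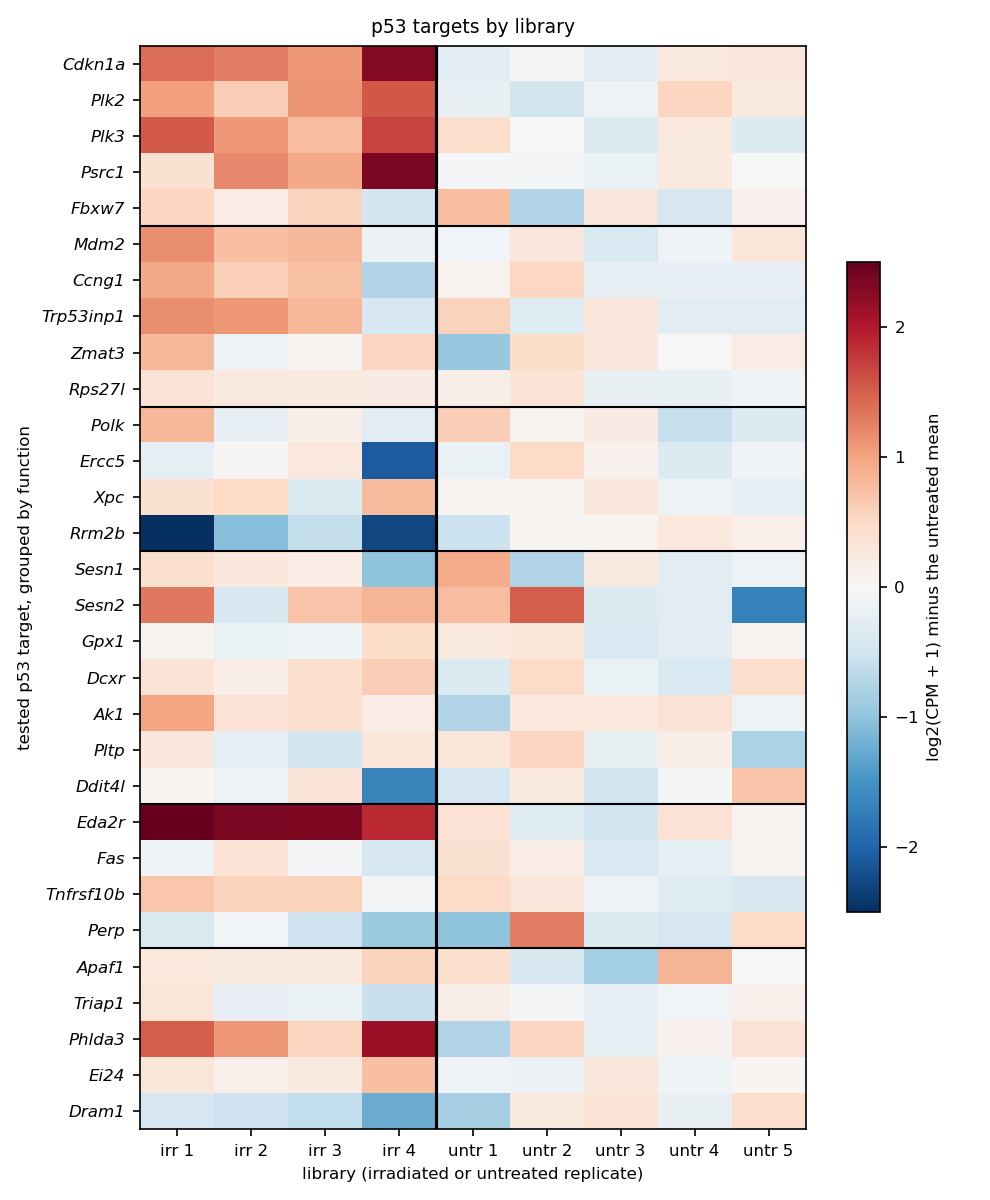
Level of the 30 tested p53 targets (rows, grouped by function) in the 4 irradiated and 5 untreated libraries (columns), as log2(CPM + 1) minus the mean of the untreated libraries. Red is above and blue below that mean. Cdkn1a, Plk2, Plk3, Psrc1, Eda2r and Phlda3 are red in all 4 irradiated libraries, and irradiated replicate 4 is the reddest library for Cdkn1a, Psrc1 and Phlda3 and the bluest for Ercc5, Sesn1 and Ddit4l.

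Irradiated libraries varied among themselves more than the group means show. Irradiated replicate 4 was above the other 3 irradiated libraries for 11 of the 30 tested targets, below them for 16 and between them for 3. It was thus the highest or lowest irradiated library for 90% of the targets, against 73.5% of all tested genes. The same share was 50%, 30% and 30% for irradiated replicates 1, 2 and 3, against 43.8%, 35.5% and 47.1% of all genes. The targets above were Cdkn1a, Plk2, Plk3, Psrc1, Xpc, Gpx1, Dcxr, Pltp, Apaf1, Phlda3 and Ei24, and those below included Mdm2, Ccng1, Trp53inp1, Eda2r and Fas. Leaving that library out raised the targets whose groups did not overlap to 11 in the higher direction, against 4.70% of the 9331 genes then tested, and left 1 in the lower direction, against 3.82%. Eda2r and Rrm2b are again among these. The number called stayed at 4, with Mdm2 in and Plk2 out (edgeR adjusted p = 0.0697).

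In the authors' deposited table, which used its own test, 6 of the 32 targets carry the authors' mark of a passing gene, and all 6 were higher in irradiated libraries. They were Cdkn1a, Plk2, Plk3, Psrc1, Eda2r and Phlda3, the same 6 whose groups did not overlap. Over the whole of the authors' deposited table, 1.11% of 13223 genes were marked higher and 0.718% lower in irradiated libraries. The authors' deposited table gives its log2 fold change as untreated over irradiated, and that of Cdkn1a was -1.60 (adjusted p = 1.38e-06).

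The wider p53 pathway was read from 3 further lists, which hold 90 genes, with 79 in the table and 56 tested. Of the 20 tested regulators and modifiers of p53, 0 rose and 0 fell. An unadjusted p under 0.05 was found for 1 of them, against 10.6% of all tested genes. Trp53 itself, the gene of p53, measured 15.6, 14.5, 16.8 and 65.2 CPM in irradiated libraries, against 30.4, 19.3, 33.3, 35.5 and 29.3 CPM in untreated libraries. Irradiated replicates 1 to 3 lay below every untreated library and irradiated replicate 4 above all of them. The log2 fold change was -0.18 ± 0.43 (edgeR adjusted p = 0.926), and -0.92 ± 0.29 without irradiated replicate 4 (edgeR adjusted p = 0.223). p53 is controlled largely through protein stability, which these libraries do not measure.

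Of 29 tested targets outside the 35, 3 rose and 0 fell, against 1.22% and 0.123% of all tested genes. A log2 fold change above 0 was seen for 23 of the 29, against 47.5% of all tested genes, and the median was 0.39. Values are given for 2 of the 3 that rose. Gdf15, a secreted stress cytokine, measured 768, 419, 279.9 and 1294 CPM in irradiated libraries, against 82.7, 85.9, 49.3, 52.6 and 44.6 CPM in untreated libraries, with no overlap (log2 fold change 3.44 ± 0.43, edgeR adjusted p = 0.00258, and 2.95 with 0.00235 without irradiated replicate 4). Tob1, an antiproliferative regulator of mRNA decay, measured 281, 258, 252 and 215 CPM in irradiated libraries, against 165, 132, 146, 162 and 163 CPM in untreated libraries. It rose by a log2 fold change of 0.71 ± 0.16 (edgeR adjusted p = 0.0413), a call lost in the fits without irradiated replicates 1, 2 or 3 or any untreated library (up to 0.169).

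Bax and Bbc3, which promote mitochondrial cell death, were not called. Bax measured 295, 262, 225 and 610 CPM in irradiated libraries, against 144, 175, 165, 184 and 185 CPM in untreated libraries. Bbc3, which encodes Puma, measured 39.0, 27.0, 23.5 and 109 CPM in irradiated libraries, against 24.1, 19.3, 11.1, 17.1 and 22.3 CPM in untreated libraries. The groups did not overlap for Bax and overlapped for Bbc3, and irradiated replicate 4 was the highest library for both. The log2 fold change was 1.02 ± 0.26 for Bax (edgeR adjusted p = 0.0867, and 0.0368 without irradiated replicate 3) and 1.33 ± 0.44 for Bbc3 (edgeR adjusted p = 0.220). Without irradiated replicate 4 it was 0.61 for Bax (edgeR adjusted p = 0.0817) and 0.64 for Bbc3 (0.489). Exons of Bax overlap those of Gm45808 on the same strand, so its level is uncertain.

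Genes that p53 lowers through p21 and the DREAM repressor complex, all of them of DNA replication and mitosis, had low levels in irradiated libraries. Of 22 such genes, 20 were in the table and 7 had enough counts to be tested. Of the 7, 2 fell, against 0.123% of all tested genes. Top2a, Mcm2 and Mcm5 passed the low-count filter through untreated libraries alone, as did the 2 that fell. The direction of these genes is therefore only description. Cdca8, a subunit of the chromosomal passenger complex, measured 1.56, 2.07, 4.48 and 0 CPM in irradiated libraries, against 56.5, 34.1, 14.8, 14.5 and 8.36 CPM in untreated libraries (log2 fold change -3.40 ± 0.72, edgeR adjusted p = 0.0339). Kif22, a chromosome-arm kinesin, measured 3.12, 3.11, 4.48 and 8.42 CPM in irradiated libraries, against 29.3, 19.3, 19.7, 14.5 and 9.76 CPM in untreated libraries (-2.03 ± 0.47, edgeR adjusted p = 0.0485). The groups did not overlap for either gene, and both passed the filter through untreated libraries alone. The call of Cdca8 was lost when irradiated replicate 1, 2 or 4 was left out (highest edgeR adjusted p 0.146), and that of Kif22 when irradiated replicate 1, 2 or 3 was (0.206). Both fell under the filter in the fits without untreated replicate 1, 2, 3 or 4.

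The summed level of the 20 genes was 79.6, 60.1, 71.7 and 46.3 CPM in irradiated libraries, against 976, 330.4, 153, 292 and 166 CPM in untreated libraries. Summed thymocyte markers moved with it, at 25.9 to 50.4 CPM in irradiated and 82.2 to 961 CPM in untreated libraries (exact permutation p = 0.0159, two-sided, and 0.0423 after adjustment over 8 marker lists). The unadjusted exact permutation p was 0.0536 without irradiated replicate 1, 2 or 4. Untreated replicate 1 was the highest library for both sums, and of the 11 thymocyte markers in the table Ptcra was at 0 in all 4 irradiated libraries. In these bulk samples fewer cells of a type and less RNA per cell cannot be told apart, and the part of thymocytes in the lower values was not tested.

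**Figure D4:**
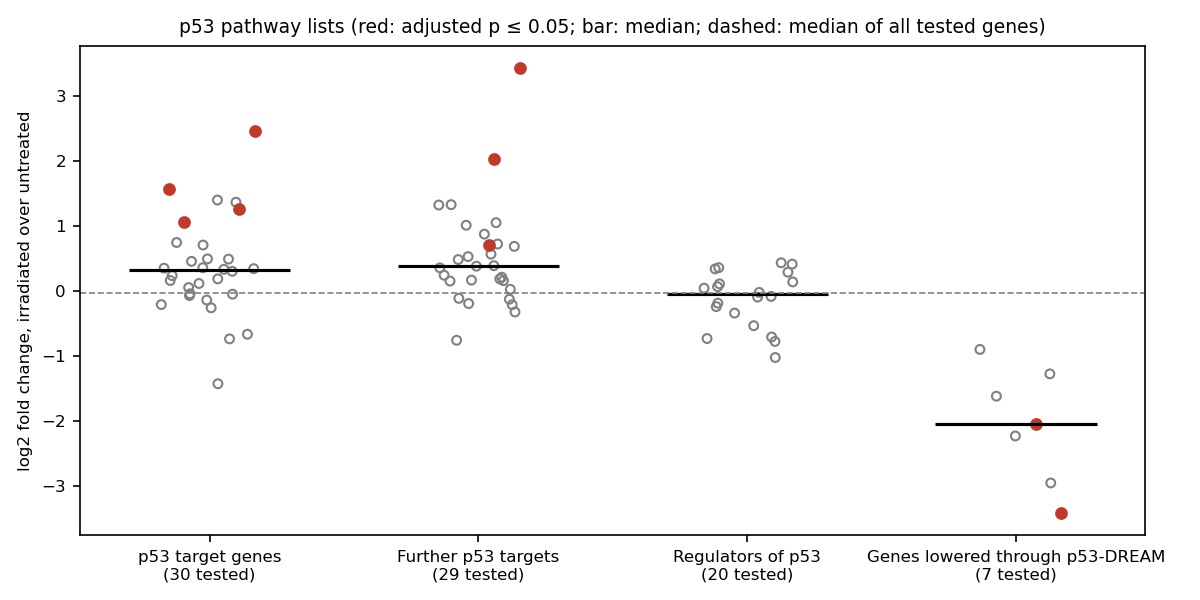
Log2 fold change of irradiated over untreated (y axis) for each tested gene of 4 p53 lists (x axis). Red points have an adjusted p of 0.05 or less, black bars are list medians and the dashed line is the median of all tested genes, -0.02. The 30 p53 targets and the 29 further targets have medians of 0.33 and 0.39, the 20 regulators -0.05, and the 7 tested genes lowered through DREAM all lie below 0. Of these 7, Top2a, Mcm2, Mcm5, Cdca8 and Kif22 passed the low-count filter through untreated libraries alone, so their direction is only description.

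Markers of other cells also differed between the groups beside the rise of Cdkn1a, Plk2, Plk3 and Eda2r. The 10 fibroblast markers summed to 2981 to 4417 CPM in irradiated and 450.4 to 2408 CPM in untreated libraries (exact permutation p = 0.0159, adjusted 0.0423). Of the 10, 1 was called higher, against 1.22% of all tested genes. Without irradiated replicate 1 or 4 the unadjusted exact permutation p of the fibroblast sum was 0.0714 and 0.0536. The 9 mesothelial markers summed to 2748 to 3982 CPM in irradiated and 1462 to 2243 CPM in untreated libraries (exact permutation p = 0.00794, adjusted 0.0423). Of the 8 tested, 6 were called higher, against the same 1.22%. Markers as low in untreated libraries as Rspo1 (mean 8.84 CPM, and 72.8 CPM in irradiated libraries) could pass the low-count filter through irradiated libraries alone. That count is therefore only description. Krt19 (mean 1789 CPM in irradiated and 1404 CPM in untreated libraries) and Msln (625 and 436 CPM) made up most of that sum. The other mesothelial markers lay further apart in ratio, from Upk3b (245 and 12.6 CPM) to Wt1 (44.1 and 7.63 CPM). No marker of either list was at 0 in all libraries of a group. Within the irradiated group, replicate 1 was highest for both sums and for Eda2r, and replicate 4 was lowest for the mesothelial sum and for Eda2r and highest for Cdkn1a, Plk2 and Plk3. Over the 4 irradiated libraries Eda2r ran in the same order as the mesothelial sum, though replicates 2 and 3 were nearly level for Eda2r. Over the 5 untreated libraries it did not, but Eda2r held 5, 2, 2, 4 and 3 counts there, too few to rank them. Untreated replicate 1 had the lowest mesothelial sum (1462 CPM) with Eda2r at 5.23 CPM. Untreated replicate 3 had a sum of 2031 CPM and the lowest Eda2r (2.47 CPM). The summed markers of macrophages and dendritic cells, endothelium, and medullary and cortical thymic epithelium did not pass (exact permutation p between 0.0714 and 0.524). Of the 9 tested macrophage and dendritic cell markers, 2 were called lower and 0 higher, against 0.123% and 1.22% of all tested genes. Ccl22 averaged 0.916 CPM in irradiated and 86.0 CPM in untreated libraries, and Ccr7 1.65 and 54.1 CPM. Markers this low in irradiated libraries could pass the filter through untreated libraries alone, so that count is only description. The part of fibroblasts and mesothelium in the values of the p53 targets was not tested.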

How the data were processed

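Sorted tuft cells were profiled by MARS-seq in 4 irradiated and 5 untreated libraries. Per the submitters' processing notes, the tools included STAR 2.5.2b, HTSeq, DESeq2, cutadapt and bcl2fastq and the build was mm10, with no role stated. The handling of molecular identifiers and of strand is not given in the sources read. Per the file headers, the deposited raw columns hold counts per gene. The deposited normalized columns hold that signal, the counts divided by a size factor per library, and the deposited regularized columns hold log2 values. Neither was used further. The authors' comparison columns hold a log2 fold change, a p-value and a pass mark, and are quoted as the authors' own. The deposited p-value columns were not used in any test.

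Counts of 13223 genes were tested in R 4.3.3 with edgeR 4.0.16 (filterByExpr with a minimum count of 10, TMM scaling, robust quasi-likelihood F test, Benjamini-Hochberg adjustment over the 8934 genes kept, called at 0.05). The SE is the log2 fold change divided by the square root of F, and the biological coefficient of variation was 28.9%. CPM are counts relative to the TMM-scaled total, and totals lay between 509157 and 978442 counts before scaling. Marker sums were compared as log2 of summed CPM plus 1 with an exact permutation test (two-sided, 126 splits), adjusted over 8 lists. Alternatives were other scalings and filters, DESeq2 1.42.0, limma-voom (limma 3.58.1), a replicate block, and leaving out each library. Same-numbered libraries of the groups did not deviate together (r between -0.12 and 0.13), so the numbers were not taken as pairs.

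The genes and lists were chosen with earlier results of these data known. Values in every library are given for called targets, for targets whose groups did not overlap, for Cdkn1a, Mdm2 and Ccng1, for targets under the filter, and for Trp53, Bax, Bbc3, Gdf15 and called genes of the wider pathway. The values of 1 called gene of the wider pathway are not reported here.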

Additional observations from a re-analysis of the deposited data

Results flagged for a closer look

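In 6 of 96 groups of libraries checked (40 genes and 8 marker sums in each condition), 1 library lay far from the others by Dixon's criterion, which chance alone meets in about 1 in 20 groups. Irradiated replicate 4 stood apart for Trp53, at 65.2 CPM with the next irradiated library at 16.8 CPM, and for Apaf1, at 21.04 CPM with the next at 17.2 CPM. Irradiated replicate 3 stood apart for the summed markers of macrophages and dendritic cells, at 930.5 CPM with the next at 303 CPM. Untreated replicate 2 stood apart for Cd80, at 23.7 CPM with the next at 6.97 CPM, and for the summed markers of medullary thymic epithelium, at 1973 CPM with the next at 834 CPM. Untreated replicate 1 stood apart for the summed thymocyte markers, at 961 CPM with the next at 255 CPM.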

How the results depend on the processing

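The 4 targets called higher became 6 with DESeq2 or limma-voom and ranged from 2 (without untreated replicate 3 or irradiated replicate 1) to 4 when 1 library was left out. DESeq2 added Psrc1 and Phlda3, and limma-voom added Phlda3, Mdm2 and Trp53inp1 and lost Plk2. Without untreated replicate 2 and irradiated replicate 4 there were 6, with Phlda3, Mdm2 and Ccng1 in and Plk2 out. Cdkn1a and Eda2r were called in each of the 18 alternatives. Over all genes, the 109 called higher ranged from 50 to 114 and the 11 called lower from 2 to 12 when 1 library was left out. DESeq2 called 180 higher and 66 lower, limma-voom 24 lower, the replicate block 22 lower, and the fit without untreated replicate 2 and irradiated replicate 4 called 17 lower. With the replicate block on replicates 1 to 4 the same number of targets (4) was called higher. The block is not a paired design, since only 1 of the 4 irradiated libraries correlated best with the untreated library of its own number. In the wider pathway the 3 called higher ranged from 1 to 3 without 1 library and were 5 with DESeq2. The 2 called lower ranged from 0 to 2 without 1 library, were 1 with DESeq2 size factors, with the filter of 10 CPM in 4 libraries and without untreated replicate 2 and irradiated replicate 4, and 4 with DESeq2. Signs turned for 8 genes and 1 marker sum, none of them called. With limma-voom the log2 fold change was 0.0071 for Ercc5, 0.23 for Sesn1 and 0.22 for Fas. Without untreated replicate 2 and irradiated replicate 4 it was 0.16 for Ercc5, 0.0028 for Sesn1, -0.0155 for Gpx1, 0.0915 for Ddit4l and 0.11 for Fas, and on replicates 1 to 4 without a block it was 0.02 for Ddit4l. Leaving out 1 library, the range was -0.16 to 0.33 for Polk, -0.48 to 0.0221 for Ercc5, -0.19 to 0.28 for Sesn1, -0.0885 to 0.15 for Gpx1, -0.22 to 0.0803 for Pltp, -0.41 to 0.0396 for Ddit4l, -0.19 to 0.0807 for Fas, -0.92 to 0.0737 for Trp53 and -0.0302 to 0.58 for the summed endothelial markers. The cause was not tested. Totals of at most 978442 counts limit genes such as Tigar, Cd80 and Rrm2b, where 1 count is worth 1.04 to 2.10 CPM. The fit without untreated replicate 2 and irradiated replicate 4, that on replicates 1 to 4 without a block, and all alternatives for the counts and genes of the wider pathway and for the marker sums were added after the data were seen.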
